A study of Homo sapiens with 6 samples.

Results

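The 9 genes described here are ALAS1, ALAS2, ALAD, UROS, UROD, CPOX, PPOX and FECH, which encode enzymes of heme synthesis, and BLVRB, which encodes biliverdin reductase B, an enzyme that acts on products of heme breakdown. They were chosen by gene symbol from the 19785 genes of the deposited table. Each symbol had 1 row, and all 9 genes were among the 10741 genes with a mean value of at least 1 that were tested. The samples were RNA from SET-2, an established megakaryoblastic leukemia line, given in the labels as secondary acute myeloid leukemia. One group was the parental line and the other was its derivative SET-2 OTX P/R, a persister and resistant line, with 3 libraries each. OTX is taken to be birabresib, a BET inhibitor, which displaces bromodomain proteins from acetylated histones. Both groups were untreated cultures in exponential growth in RPMI medium with fetal bovine serum, so no library was taken under drug, and the labels give neither a genotype nor whether the derivative is 1 clone. The labels name only 1 derivative, so differences tied to resistance and other differences between the lines cannot be told apart.

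Heme synthesis starts and ends in the mitochondrion. Aminolevulinic acid synthase joins glycine and succinyl-CoA in the matrix, with pyridoxal phosphate as cofactor, and it exists as a housekeeping enzyme, ALAS1, and an erythroid enzyme, ALAS2. ALAD, UROS and UROD act in the cytosol, and CPOX, PPOX and FECH complete protoporphyrin and insert iron back in the mitochondrion. ALAS1 is known for being repressed by heme, and ALAS2 for being driven by GATA1 and limited by iron through its messenger RNA. Cells of the erythroid and megakaryocytic lineages share many of these regulators.

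The sequences just before the starts of ALAS2, ALAS1 and UROD are shown because the first 2 encode enzymes of the same reaction that moved in opposite directions, and UROD had the largest change among the genes called with all 6 libraries. Each is the 250 bases before the gene's start in RefSeq on build GRCh38.p14, 5′ to 3′ on the gene's strand. They lie at chrX:55030978-55031227 (minus strand) for ALAS2, at chr3:52197833-52198082 (plus strand) for ALAS1 and at chr1:45012004-45012253 (plus strand) for UROD. Capitals mark matches on either strand to a GATA motif (AGATAA or AGATAG or TGATAA or TGATAG) or to the core shared by AP-1 and NFE2 sites (TGAGTCA or TGACTCA).
ALAS2: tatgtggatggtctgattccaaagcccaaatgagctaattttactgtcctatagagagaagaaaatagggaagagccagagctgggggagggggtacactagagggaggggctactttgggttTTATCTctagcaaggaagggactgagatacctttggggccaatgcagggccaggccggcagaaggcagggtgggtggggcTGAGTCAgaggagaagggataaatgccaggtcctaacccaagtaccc
ALAS1: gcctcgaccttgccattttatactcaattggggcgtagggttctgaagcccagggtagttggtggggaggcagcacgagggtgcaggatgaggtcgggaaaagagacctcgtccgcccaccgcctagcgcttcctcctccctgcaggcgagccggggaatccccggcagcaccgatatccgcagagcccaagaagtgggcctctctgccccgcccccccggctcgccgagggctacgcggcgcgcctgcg
UROD: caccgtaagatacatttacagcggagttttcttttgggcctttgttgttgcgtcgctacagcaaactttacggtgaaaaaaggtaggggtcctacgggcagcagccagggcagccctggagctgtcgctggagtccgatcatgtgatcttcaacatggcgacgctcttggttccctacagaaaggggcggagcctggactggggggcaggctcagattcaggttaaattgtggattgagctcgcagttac

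The ALAS2 sequence held 1 GATA match, at -127 to -122 from the start, and 1 match to the AP-1 and NFE2 core, at -47 to -41. The ALAS1 and UROD sequences held neither. A CACCC motif (CCACCC or CACACCC, either strand) occurred in ALAS2 at -60 to -55 and at -56 to -51, which overlap each other, and in neither ALAS1 nor UROD. It also occurred in ALAD at -152 to -146 from the first listed start and in PPOX at -188 to -183 and at -74 to -68 from the second. Among the 35116 sequences of this kind in RefSeq, 22.3% held a GATA match, 4.20% the AP-1 and NFE2 core and 35.4% a CACCC match. The core of the NRF1 motif (CATGCGC), found in 3.77% of all such sequences, was in none of the 10 sequences available for these genes. RefSeq sequences were at hand for 8 of the 9 genes, and CPOX had 2 GATA matches, while ALAD and PPOX, with 2 starts each, had 1 GATA match each, before the second listed start. FECH and BLVRB had no match to any of the 4 motifs. The GC content was 52.8% for ALAS2 and 53.6% for UROD against 67.2% for ALAS1, beside a median of 58% over all sequences. These matches are a description of letters and not of binding.

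Of the 9 genes, 4 rose in the OTX P/R line (UROD, ALAS2, PPOX and FECH), 1 was lower (ALAS1) and 4 did not pass (ALAD, UROS, CPOX and BLVRB). The test was limma's moderated test on log2(value + 1), with Benjamini-Hochberg adjustment over all 10741 genes, and a gene passed at an adjusted p under 0.05. Values are normalized abundances per gene length, and fold changes on this scale understate the change of low genes. Among all tested genes 36.1% passed, 18.6% higher and 17.5% lower, so 5 of 9 is a share of 55.6% beside that background, in a set too small to read as a property of the group. The groups did not overlap for the same 5 genes, where 51.6% of all tested genes had groups that did not overlap. Of the called genes, UROD and ALAS1, 2 in all, changed by at least 1.5 times, against 14.6% of all tested genes. The median log2 fold change of the 9 genes was 0.24, and that of all tested genes was 0.02.

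**Figure D1:**
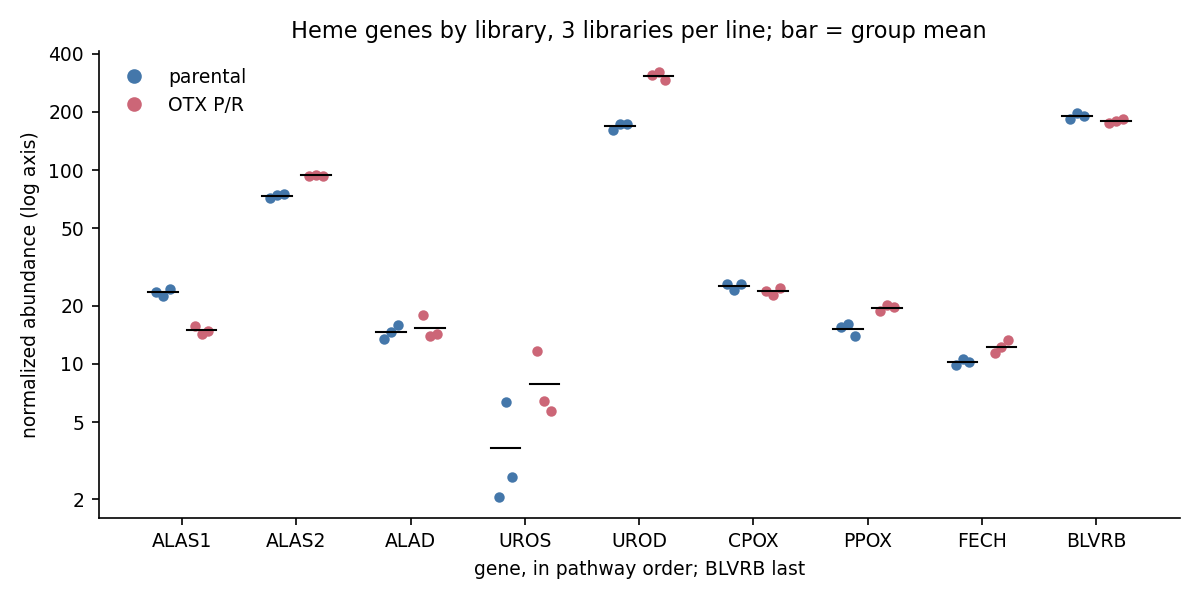
Normalized abundance (log axis) of each gene in the 3 parental (blue) and 3 OTX P/R (red) libraries, with bars for the group means. The groups stand apart for ALAS1, ALAS2, UROD, PPOX and FECH, and overlap for ALAD, UROS, CPOX and BLVRB.

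The 2 synthase genes, which encode the rate-limiting first step, moved in opposite directions. ALAS1 stood at 23.5, 22.5 and 24.2 in parental replicates 1 to 3 and at 15.6, 14.2 and 14.8 in OTX P/R replicates 1 to 3. Every OTX P/R library lay below every parental library, and the group means were 23.4 ± 0.855 and 14.9 ± 0.679 (SD, n = 3 per group). ALAS1 fell by 0.62 on the log2 scale (SE 0.06, 95% interval -0.76 to -0.49, limma adjusted p = 4.60e-04).

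ALAS2 stood at 71.8, 74.0 and 75.2 in the parental libraries and at 93.5, 94.9 and 93.8 in the OTX P/R libraries. The OTX P/R libraries were all higher and lay closer together than the parental ones, with means of 94.1 ± 0.762 against 73.7 ± 1.74 (SD, n = 3 per group). The log2 fold change was 0.35 ± 0.04 SE (95% interval 0.25 to 0.45, limma adjusted p = 0.00114).

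Because both enzymes make the same product, their values were also compared within each library. ALAS2 exceeded ALAS1 by a ratio of 3.06, 3.29 and 3.10 in the parental libraries and of 5.997, 6.67 and 6.36 in the OTX P/R libraries. The mean ratio was 3.15 ± 0.122 in parental and 6.34 ± 0.336 in OTX P/R cells, with no overlap. On the log2(value + 1) scale the ratio differed by 0.97 between the groups, and an exact two-sided permutation test over the 6 libraries gave p = 0.1, the smallest that 3 against 3 can give. Since both genes separated the groups in opposite directions, the ratio had to separate them as well. It restates the 2 changes and adds no separate evidence. The summed value of both genes was 97.1 ± 2.13 in parental and 108.9 ± 0.288 in OTX P/R cells. The sum was computed after the values were seen and was not tested.

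**Figure D2:**
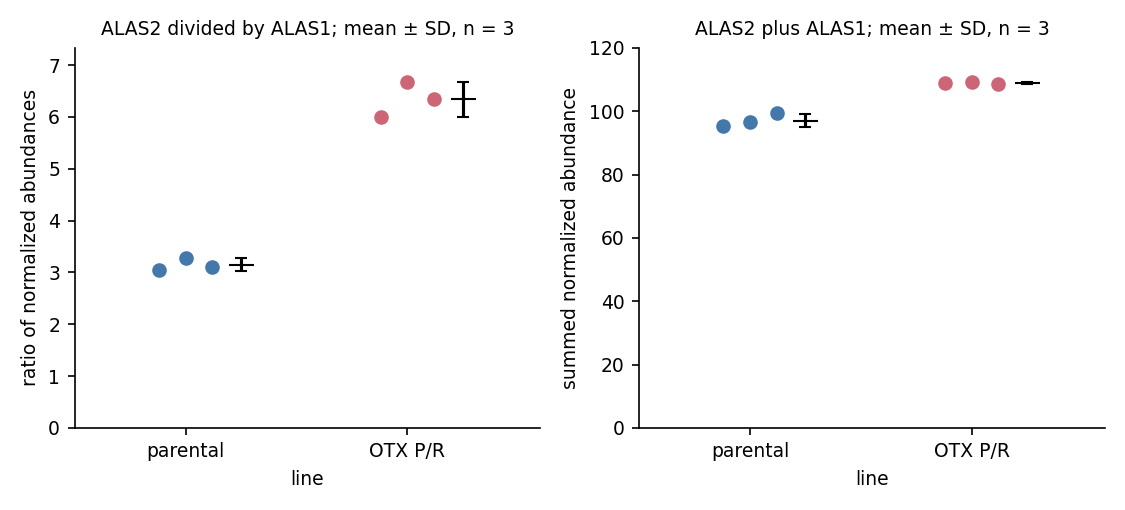
ALAS2 divided by ALAS1 (left) and ALAS2 plus ALAS1 (right) in each parental (blue) and OTX P/R (red) library, with the mean and SD of 3 libraries in black; both vertical axes start at 0. The ratio lies between 3.06 and 3.29 in parental and between 5.997 and 6.67 in OTX P/R libraries, while the sum moves from a mean of 97.1 to 108.9.

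Of the cytosolic enzymes only UROD passed the test. UROD, which removes the carboxyl groups of the acetate side chains of uroporphyrinogen, stood at 160.5, 172.4 and 173.5 in the parental libraries and at 309.9, 321.6 and 290.8 in the OTX P/R libraries. The lowest OTX P/R library was far above the highest parental one, and the group means of 168.8 ± 7.18 and 307.4 ± 15.5 (SD, n = 3 per group) gave a ratio of 1.82. The log2 fold change was 0.86 ± 0.06 SE (95% interval 0.72 to 1.00, limma adjusted p = 1.30e-04), larger in size than that of 91.7% of the tested genes.

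UROS, which closes the ring of uroporphyrinogen III, did not pass. Its values were 2.06, 6.34 and 2.59 in the parental libraries and 11.6, 6.40 and 5.72 in the OTX P/R libraries. Parental replicate 2 lay inside the OTX P/R range, so the groups overlapped, and the spread within each group was large beside the means of 3.66 ± 2.34 and 7.90 ± 3.20 (SD, n = 3 per group). The log2 fold change was 0.99 ± 0.39 SE (95% interval 0.03 to 1.95, limma adjusted p = 0.1002). The 95% intervals given here are per gene and not adjusted for the number of genes tested, so that of UROS leaves out 0 without a call. Without parental replicate 2 the log2 fold change was 1.37 and passed (adjusted p = 0.0253), and over the 6 libraries left out in turn it ranged from 0.71 to 1.37, with adjusted p from 0.0253 to 0.241.

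ALAD, which condenses aminolevulinic acid to porphobilinogen, ranged from 13.4 to 15.9 in parental and from 13.9 to 17.8 in OTX P/R libraries. The groups overlapped, and the highest value was that of OTX P/R replicate 1. Its log2 fold change was 0.05 with a 95% interval of -0.22 to 0.32 (limma adjusted p = 0.736), and leaving out 1 library moved it between -0.05 and 0.11.

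The last mitochondrial steps rose or did not pass. PPOX, which oxidizes protoporphyrinogen, stood at 15.5, 16.1 and 13.9 in the parental libraries and at 18.8, 20.0 and 19.6 in the OTX P/R libraries. All OTX P/R values were above all parental values (means 19.5 ± 0.655 and 15.2 ± 1.16; SD, n = 3 per group), with a log2 fold change of 0.34 ± 0.07 SE and a limma adjusted p = 0.0111.

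FECH, which inserts iron into protoporphyrin, stood at 9.84, 10.5 and 10.2 in the parental libraries and at 11.4, 12.1 and 13.3 in the OTX P/R libraries. The groups did not overlap, but the difference was the smallest of those that passed, with a log2 fold change of 0.24 ± 0.07 SE (95% interval 0.08 to 0.41, limma adjusted p = 0.0360). The FECH call was lost when any library other than OTX P/R replicate 1 was left out (adjusted p over all 6 libraries left out from 0.0365 to 0.0919, log2 fold change 0.19 to 0.29).

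CPOX, which acts in the step before PPOX, ranged from 24.1 to 26.0 in parental and from 22.8 to 24.6 in OTX P/R libraries. The highest OTX P/R value lay above the lowest parental one, and the log2 fold change was -0.09 with a 95% interval of -0.22 to 0.04 (limma adjusted p = 0.251). The upper end of that interval lies below the log2 fold changes of ALAS2 and PPOX.

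BLVRB, which reduces biliverdin and flavins, ranged from 183.3 to 198.5 in parental and from 176.2 to 183.3 in OTX P/R libraries. The highest OTX P/R value was just above the lowest parental one. Its log2 fold change was -0.09, with a 95% interval of -0.20 to 0.03 (limma adjusted p = 0.199).

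**Figure D3:**
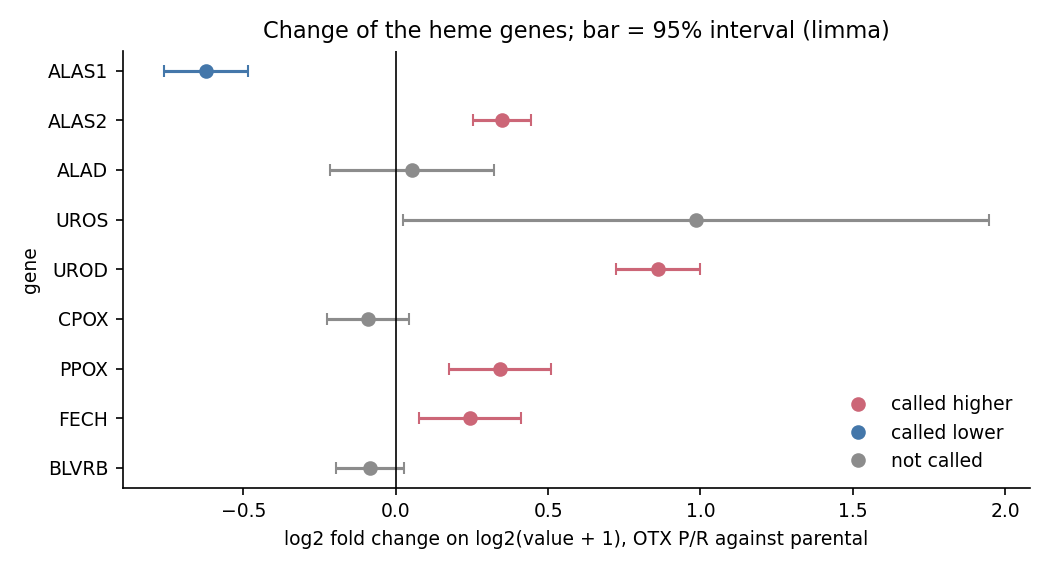
Log2 fold change of each gene between OTX P/R and parental cells, with 95% intervals from limma (red, called higher; blue, called lower; grey, not called). UROD is highest among the called genes at 0.86, ALAS1 lies at -0.62, and the wide interval of UROS runs from 0.03 to 1.95. The intervals are not adjusted for the number of genes tested, whereas the calls are.

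The 9 genes spanned a wide range of levels. In the parental libraries the order by mean abundance was BLVRB, UROD, ALAS2, CPOX, ALAS1, PPOX, ALAD, FECH and UROS, from 191.0 for BLVRB to 3.66 for UROS. CPOX and ALAS1 overlapped each other in that order, as did PPOX and ALAD, and the other neighbours did not. In OTX P/R libraries UROD came first, at 307.4, ahead of BLVRB at 180.0, without overlap. ALAS1 went from the fifth to the seventh place, where its values overlapped those of ALAD, and UROS and FECH overlapped at the lower end. Over all 6 libraries the mean of UROD was above that of 98.0% of the tested genes, that of BLVRB above 97.2% and that of ALAS2 above 92.5%, while UROS was above 33.6%.

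The genes lie on 7 chromosomes, and none sat among neighbours that moved as a block. The median log2 fold change of the 24 nearest tested genes, 12 on each side in the order of GENCODE v29 (GRCh38), was between -0.07 and 0.07 for each of the 9 genes. ALAS1 on chromosome 3 was below all 24 of its neighbours. UROD on chromosome 1 was above 22 of 24, as was UROS on chromosome 10. ALAS2 on chromosome X and PPOX on chromosome 1 were each above 17 of 24, inside the central range of their neighbours' changes, where genes moved in both directions. The FECH change, on chromosome 18, was above those of 19 of 24.

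**Figure D4:**
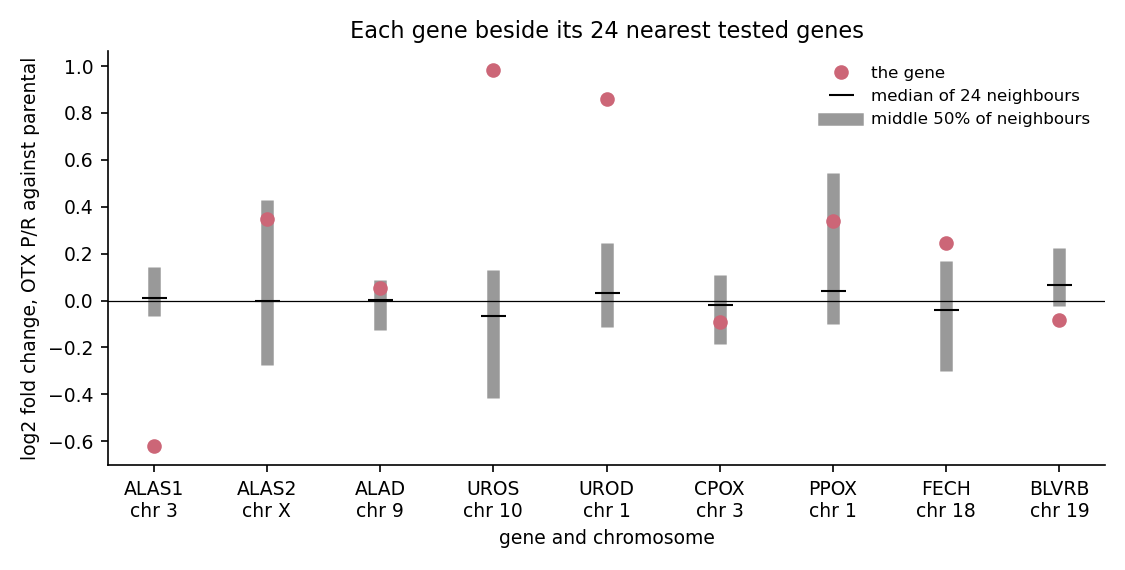
Log2 fold change of each gene (red point) beside the median (black) and the middle 50% (grey) of its 24 nearest tested genes. The neighbour medians stay between -0.07 and 0.07, while UROD, UROS and ALAS1 lie outside the grey range, as do FECH and BLVRB by less.

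Heme breakdown genes other than BLVRB were lower or did not pass. HMOX1, the inducible oxygenase that opens the heme ring, stood at 28.3, 36.7 and 44.1 in the parental libraries and at 13.1, 19.6 and 19.4 in the OTX P/R libraries, without overlap. It fell by 1.02 on the log2 scale (SE 0.21, limma adjusted p = 0.0125). HMOX2, the constitutive oxygenase, ranged from 5.13 to 20.3 in parental and from 6.17 to 16.3 in OTX P/R libraries, with replicate 3 low in both groups, and did not pass (adjusted p = 0.831). BLVRA, the main adult biliverdin reductase, had a log2 fold change of -0.52 and did not pass (adjusted p = 0.122). Without OTX P/R replicate 1 BLVRA passed (log2 fold change -0.71, adjusted p = 0.0455), which made 2 of the 3 genes called.

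Of 16 tested genes for transport and mitochondrial support 6 rose, 3 fell and 7 did not pass, with a median log2 fold change of 0.09. The called share was 56.25%, beside 36.1% of all tested genes. SLC25A37, mitoferrin, which carries iron into mitochondria of erythroid cells, stood at 28.7, 33.9 and 34.2 in parental and at 53.1, 65.4 and 77.4 in OTX P/R libraries (log2 fold change 0.98, limma adjusted p = 0.00352). FAM210B, a mitochondrial protein tied to iron supply for heme synthesis, rose from 4.21 to 10.1 in group means (log2 fold change 1.09, adjusted p = 1.70e-04). ABCB8 rose as well (log2 fold change 1.12), and its call was lost without OTX P/R replicate 1 or 2 or parental replicate 1 or 3. SLC25A39, a mitochondrial glutathione carrier, fell by 0.85 on the log2 scale. CLPX, the unfoldase that activates ALAS and targets it for turnover, fell by 0.29. The CLPX call was lost without parental replicate 3 or any 1 OTX P/R library. SLC25A38, the glycine carrier that feeds ALAS, had a log2 fold change of -0.03 and did not pass. The neighbours of ABCB8 on chromosome 7 had a median log2 fold change of 0.81 and those of SLC25A39 on chromosome 17 of -0.74, so these genes lie where neighbours moved the same way.

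Genes that supply the first step moved in both directions, 3 higher, 3 lower and 5 not passing among 11 tested. Of these 54.5% were called, beside 36.1% of all tested genes. SLC6A9, a glycine transporter of the cell surface, stood at 0.757, 1.45 and 0.787 in parental and at 7.73, 5.21 and 5.03 in OTX P/R libraries, a log2 fold change of 1.80 (limma adjusted p = 9.83e-04). Its parental mean of 0.999 is under the filter of 1, so that it entered the test through the OTX P/R libraries. PDXK, which makes pyridoxal phosphate, stood at 35.3, 44.9 and 39.8 in parental and at 26.0, 20.4 and 23.1 in OTX P/R libraries and fell by 0.76 on the log2 scale (adjusted p = 0.00401). OGDH and SUCLG2, of the citric acid cycle around succinyl-CoA, fell by 0.46 and 0.37. DLD rose by a log2 fold change of 0.52, lost its call without OTX P/R replicate 2 (adjusted p = 0.0530), and lies on chromosome 7 among neighbours with a median of 0.59.

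Iron-sulfur assembly genes showed few changes, with 1 of 16 tested genes called, 6.25% beside the 36.1% of all tested genes. HSPA9, a mitochondrial chaperone on chromosome 5, fell by 0.53 on the log2 scale among neighbours with a median of -0.61. GLRX5 and ISCU, of cluster transfer and scaffolding, had log2 fold changes of 0.08 and 0.16 and did not pass. ACO1 and IREB2, the iron regulatory proteins that bind the ALAS2 messenger RNA, had log2 fold changes of -0.18 and -0.23 and did not pass.

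Among 15 tested regulators 6 rose, 2 fell and 7 did not pass, a called share of 53.3% beside 36.1% of all tested genes. GATA1, the main activator of ALAS2, stood at 183.9, 193.6 and 188.5 in parental and at 205.8, 206.5 and 199.5 in OTX P/R libraries. These groups did not overlap, as for 51.6% of all tested genes, but GATA1 did not pass (log2 fold change 0.11, limma adjusted p = 0.0776). KLF1 went the other way, at 308.1, 301.9 and 280.9 in parental and at 264.5, 276.8 and 267.9 in OTX P/R libraries. Its groups did not overlap either, and KLF1 did not pass (log2 fold change -0.14, limma adjusted p = 0.0779). GATA2 rose by 0.47 on the log2 scale and TAL1, a partner of GATA factors, by 0.39. NFE2 rose by 0.23 (adjusted p = 0.00805), and a link to the core shared with AP-1 sites in the ALAS2 sequence was not tested. NRF1, a factor of nuclear genes for mitochondria, rose by 0.47 and lies on chromosome 7 among neighbours with a median of 0.72. NR1D1, a heme-binding nuclear receptor known to repress ALAS1 indirectly, fell by 0.59 on the log2 scale among chromosome 17 neighbours with a median of -0.80, and NFE2L2, an activator of HMOX1, fell by 0.34. BACH1, the heme-sensing repressor of HMOX1, had a log2 fold change of -0.22 and did not pass. PPARGC1A, a coactivator of ALAS1 in liver, was listed at 0 in all 6 libraries.

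Of 14 tested genes for heme modification and for heme proteins other than globins 3 rose, 4 fell and 7 did not pass. The called share was 50%, beside 36.1% of all tested genes. PTGS1, the cyclooxygenase of platelets, stood at 11.1, 9.00 and 10.8 in parental and at 19.3, 19.6 and 18.5 in OTX P/R libraries (log2 fold change 0.84, limma adjusted p = 7.41e-04). TBXAS1, thromboxane synthase, had a parental mean of 0.461 and an OTX P/R mean of 2.35 (log2 fold change 1.24), entered the test only through the OTX P/R libraries, and lies on chromosome 7 among neighbours with a median of 0.67. CYC1, cytochrome c1 of the respiratory chain, fell by 0.27 on the log2 scale. The calls of CAT (0.20), CYBA (-0.53), COX15 (-0.31) and SUOX (-0.24) were each lost when single libraries were left out, and 4 to 5 genes of the list passed in those fits. CAT lost its call without any 1 library other than OTX P/R replicate 1, and SUOX without any 1 library. CYBA lost it without any 1 parental library and COX15 without OTX P/R replicate 1 or 2.

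**Figure D5:**
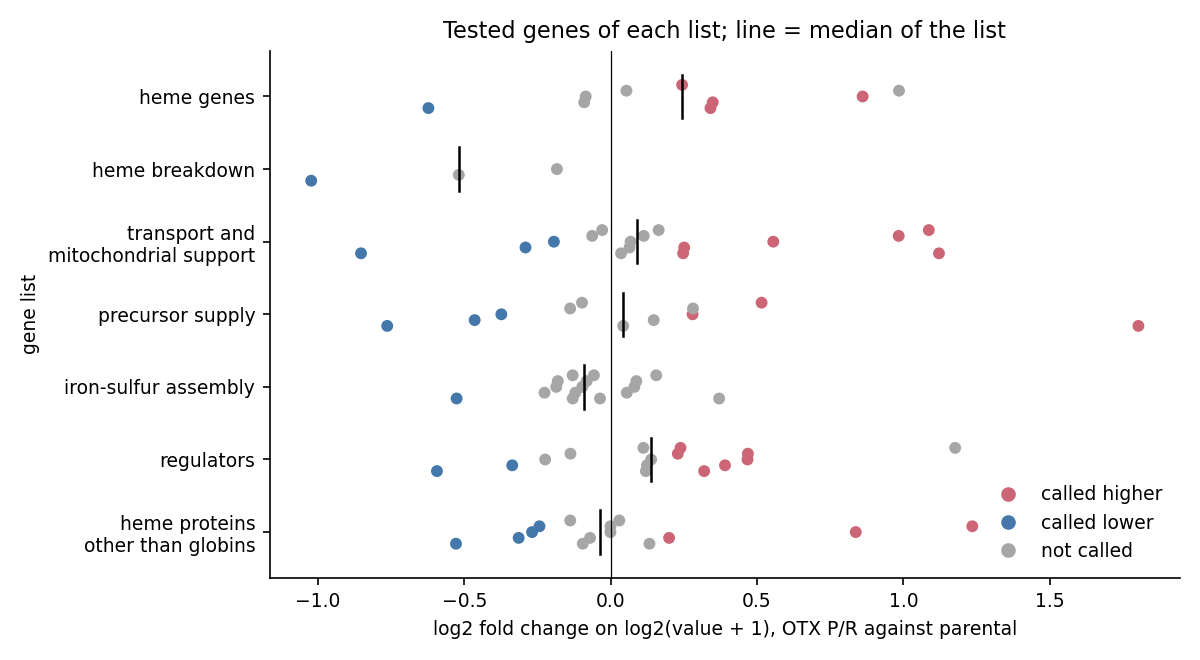
Log2 fold change of each tested gene in the lists around heme synthesis (red, called higher; blue, called lower; grey, not called), with a black line at the median of each list. Iron-sulfur genes lie close to 0 with 1 call of 16, and the lists for transport, supply, regulators and heme proteins hold calls on both sides.

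The globins take up most heme of red cells, and of 10 tested globin genes 2 rose, 6 fell and 2 did not pass. The called share was 80%, beside 36.1% of all tested genes. HBB, which fell (means 2.96 and 0.615), entered the test only through the parental libraries. HBE1 held the top rank in each parental library, so that its level there is not measured exactly. It was listed at 7465 in every parental library and at 1245 to 1321 in OTX P/R libraries, a fall of inexact size. HBZ fell from a mean of 59.9 to 12.8 (log2 fold change -2.14). With HBE1 the summed globin value was 15159 to 16286 in parental and 8004 to 8627 in OTX P/R libraries. Without HBE1 the summed value of the other 9 globin genes ranged from 7694 to 8821 in parental and from 6758 to 7317 in OTX P/R libraries, without overlap. Most of that sum came from HBG1, HBG2, HBA1 and HBA2, whose values are also set by a few high ranks, so its change is inexact too. HBG2 was listed at 2163 in parental replicate 1 and in OTX P/R replicate 1. Of these genes HBG1 fell (log2 fold change -0.31), HBA1 rose (0.21), and HBG2 and HBA2 did not pass.

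Marker genes of the lineage moved in both directions. Of 20 erythroid markers 18 were tested, 12 rose and 2 fell, a called share of 77.8% beside 36.1% of all tested genes. The summed value of the erythroid markers ranged from 856.5 to 909.4 in parental and from 946.9 to 1151 in OTX P/R libraries. EPB42, a red cell membrane protein, had a mean of 0.778 in parental and 12.5 in OTX P/R libraries (log2 fold change 2.94); it entered the test only through the OTX P/R libraries, since its parental mean is under the filter of 1. TFRC, the transferrin receptor, fell from a mean of 219.1 to 144.2, and SLC4A1 and AHSP, of mature erythroblasts, stayed under 1 in every library. Of 15 megakaryocyte markers 9 were tested, 7 rose and 1 fell (summed value 280.9 to 304.9 in parental and 314.3 to 320.3 in OTX P/R libraries). The called share was 88.9%, beside 36.1% of all tested genes. ITGA2B, the most abundant marker of that list, was the 1 that fell, from a mean of 216.0 to 137.7 (log2 fold change -0.64, limma adjusted p = 3.17e-04). PF4 was listed at 0 throughout. How far these markers' movement bears on the heme genes was not tested, and in bulk RNA a larger share of cells of a type and more RNA per cell cannot be told apart. Of the markers of other cells CD14, CSF1R, MPO, CD3E, MS4A1, DCN and EPCAM were all under 0.2 in every library. ITGAM, of the myelomonocytic list, had means of 8.13 in parental and 3.45 in OTX P/R libraries and was called lower. COL1A1 went from a mean of 0.0732 to 1.92, FCGR1A from 1.51 to 0.411 and KRT8 from 0.587 to 0.775, and these were not tested. Other genes of those lists were present: CD68 had means of 236.8 in parental and 111.2 in OTX P/R libraries, LYZ 95.7 and 92.2, CD7 73.4 and 93.0, NKG7 62.2 and 29.6, CD79A 8.81 and 6.71, and KRT18 9.52 and 14.3. Of 8 myelomonocytic markers 3 were tested and 2 fell (summed value 325.5 to 355.5 in parental and 194.8 to 218.4 in OTX P/R libraries). Of 8 lymphoid markers 5 were tested, 1 rose and 4 fell (149.9 to 160.0 and 126.6 to 137.0), and of 8 stromal and epithelial markers 1 was tested and rose (8.83 to 11.1 and 15.6 to 18.0). CD3D and GZMB, which fell, entered the test only through the parental libraries, since their OTX P/R means are under the filter of 1. The called shares were 66.7%, 100% and 100% of these few tested markers, beside 36.1% of all tested genes. Libraries of 1 group had correlations of log2 values from 0.986 to 0.988, and libraries of different groups from 0.948 to 0.949.

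The genes whose profile over the 6 libraries was nearest to that of UROD, by Euclidean distance of centred log2(value + 1) among 7076 candidates with a mean of at least 5, were PECAM1, TMSB4X, SLC9A3R1, FLCN and SDSL, at distances of 0.0896 to 0.138. PECAM1, an adhesion molecule of platelets and endothelium, had means of 7.90 and 15.3, and TMSB4X, which binds actin monomers, 290.3 and 538.5. The nearest to ALAS1 were KIF20A, EXOSC4, RARS, IFI44 and BAG3, at distances of 0.0671 to 0.0911. KIF20A, a mitotic kinesin, had means of 16.4 and 10.7, and RARS, the arginyl-tRNA synthetase, 52.8 and 34.6. With 6 libraries in 2 groups such likeness rests mainly on the size of the difference between the lines.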

How the data were processed

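RNA of 6 SET-2 libraries was sequenced, 3 parental and 3 OTX P/R, grouped by their titles. Trim Galore, HISAT2 and StringTie were run by the authors on build hg19, per the submitters' processing notes, without stated versions. The deposited signal is the linear abundance that StringTie gives for each gene; whether it is FPKM or TPM is not given in the sources used here. Above a value of 1 the sorted values of the libraries agreed within 0.243%, so the table is quantile-normalized: a value tells a gene's rank, differences in total RNA are not kept, and the depth is unknown, so no counting interval is given.

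From these values, 6 genes with a missing value were left out. Genes whose mean reached 1, 10741 in all, were tested two-sided on log2(value + 1) with limma 3.58.1 in R 4.3.3, with a trended variance prior and Benjamini-Hochberg adjustment over all of them. Of rows sharing a symbol the one with the higher mean was used. Exact permutation of 3 libraries against 3 cannot give p under 0.1. The procedure was tested on simulated data. The members and gene lists were chosen with earlier results of these data known. Named genes were the 9 members, up to 3 called genes per direction in each list with further list members given as values, and the 5 nearest profiles to UROD and ALAS1. NFE2 and SUOX fall outside that rule and were named after their values were seen. Some genes that the rule covers are left out of the text. Alternatives were other pseudocounts (0.1 and 5) and filters (none, and a mean of 5), other variance priors, median centring, summed rows of repeated symbols, a replicate block, leaving out each library, and globin rows removed before a new quantile normalization. Sequences came from RefSeq (GRCh38.p14), whose coordinates were not mixed with those of hg19. Python 3.11.15, pandas 2.3.3, NumPy 2.4.6 and Matplotlib 3.10.9 were used.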

Additional observations from a re-analysis of the deposited data

How the results depend on the processing

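Of the 9 genes, ALAS1, ALAS2, UROD, CPOX, PPOX and BLVRB kept their direction and their side of the threshold under all 16 alternatives. ALAS1 ranged from -0.66 to -0.52 on the log2 scale, UROD from 0.83 to 0.90, ALAS2 from 0.33 to 0.36 and PPOX from 0.28 to 0.38 (adjusted p 0.0106 to 0.0432). ALAD, which did not pass, turned negative without OTX P/R replicate 1 (-0.05) and without parental replicate 1 (-0.0035). With each library left out, ALAD ranged from -0.0523 to 0.113, UROS from 0.71 to 1.37 and FECH from 0.19 to 0.29. The log2 fold change of UROS was 0.58 with a pseudocount of 5 and 1.19 with 0.1. The replicate numbers did not pair the libraries: deviations of same-numbered libraries had correlations of -0.06, -0.03 and -2.94e-04, and no library correlated best with its own number. With the replicate block, FECH did not pass (log2 fold change 0.24, adjusted p = 0.0615), 2 breakdown genes and 4 heme protein genes were called in place of 1 and 7, and 3159 of all tested genes in place of 3879. The added breakdown gene was BLVRA (log2 fold change -0.52, adjusted p = 0.00794). The call of no other member changed. The difference in the ALAS2 to ALAS1 ratio was 0.85 to 1.01 over its alternatives. With each library left out, 1 to 2 breakdown genes, 1 to 2 iron-sulfur genes and 4 to 5 heme protein genes were called. Without a filter on low values 2 iron-sulfur, 5 myelomonocytic and 3 stromal or epithelial genes were called in place of 1, 2 and 1, and with a minimum mean of 5 the lymphoid markers called were 3 in place of 5, where the set of tested genes differs. In other cases the cause was not tested. Globin genes have no value where their rows were removed. Depth is unknown, so differences among low values such as those of UROS cannot be set against counting error.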
